A study of Mus musculus with 2 samples.

Results

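The mitochondrial ribosomal protein genes are taken here as the protein-coding genes whose mouse symbol is Mrpl or Mrps followed by a number. RefSeq's annotation of GRCm38.p6, the assembly behind mm10, held 78 of them among 21883 protein-coding genes outside the mitochondrial genome: 49 Mrpl genes, named for the large subunit, and 29 Mrps genes, named for the small subunit. They were examined for peaks of KAT8, a lysine acetyltransferase of the MYST family that acetylates histone H4 and works in the MSL and NSL chromatin complexes. Peaks came from CUT&Tag, in which an antibody brings a transposase to the bound protein and the DNA around it is cut and tagged for sequencing. The cells were primary wild-type mouse macrophages grown from bone marrow in 20 ng/ml M-CSF. One group was untreated (1 library) and the other was given R848, a small-molecule agonist of TLR7, at 100 ng/ml for 2 h (1 library). All cells of both groups had the M-CSF culture; sex, age and strain were not used here. Without replicates, no difference between the groups has a replicate check, and no test was run.

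Mitochondrial ribosomes translate the few respiratory chain subunits that the mitochondrial genome encodes. Their RNA is transcribed inside the organelle, whereas all of their proteins are encoded in the nucleus, made in the cytosol and imported, so the whole family depends on nuclear promoters spread over many chromosomes. The NSL complex is known from other cells for binding the promoters of housekeeping genes. Some symbols do not follow the structure: Mrps30 and Mrps18a encode proteins of the large subunit, and the protein of Mrps36 is now placed in the 2-oxoglutarate dehydrogenase complex.

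A member counted as having a gene-end peak if a deposited peak reached, by any base, to within 1000 bp of its start or its far end; of several such peaks the one with the highest fold was used. Fold is the authors' ratio of fragments at the summit to the local background. The untreated list held 52001 peaks and the R848 list 44772. The most common background, solved from the deposited values, was 3.37 overlapping fragments (untreated) and 2.62 (R848), and the lowest summit listed had 8 and 7 fragments. The R848 library was thus the shallower by this measure, and its list the shorter. The lists run down to a −log10 p of 2.01 in both, so many entries are weak. Of 11 macrophage markers, 2 had an untreated gene-end peak (Cd68 and Spi1) and 4 an R848 one (Cd68, Cd14, Mertk and C1qb), while Csf1r, Adgre1, Itgam, Lyz2, Fcgr1 and Cx3cr1 had none. Of 9 lymphoid markers, 0 and 2 had one (Cd3d and Zap70, R848 list). Of 10 granulocyte and dendritic cell markers, 2 and 1 did (Siglech in the untreated list, Xcr1 in both), and of 7 stromal and endothelial markers 0 in both lists. Over all protein-coding genes, 28.8% had an untreated gene-end peak and 24.4% an R848 one. A KAT8 peak is not a measure of expression, so the marker counts do not check the cell type.

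Where a promoter of RefSeq's promoter table carried the family's most significant peaks, the sequence is shown to let the signal be read against the DNA under it. Mrpl15 and Mrpl54, with an untreated −log10 q of 7.80 and 6.73, had no entry there and could not be shown. For the 6 members with the highest −log10 q among those whose promoter overlapped the peak, the 250 bases before the annotated start follow, 5′ to 3′ on the gene's own strand (RefSeq, GRCm38.p6). Capitals mark the letters of 5 searched motifs on either strand: CCGGAAG (ETS factors such as GABPA), GCATGCGC (NRF1), AAGATGGCG (YY1), GGGCGG (the GC box of SP and KLF factors) and ACTACA (a core of the ZNF143 site).
Mrpl41: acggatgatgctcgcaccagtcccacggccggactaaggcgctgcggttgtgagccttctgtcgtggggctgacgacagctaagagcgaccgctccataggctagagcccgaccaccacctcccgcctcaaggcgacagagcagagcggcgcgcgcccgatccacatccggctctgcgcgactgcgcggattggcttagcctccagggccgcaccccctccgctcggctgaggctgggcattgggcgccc
Mrps18b: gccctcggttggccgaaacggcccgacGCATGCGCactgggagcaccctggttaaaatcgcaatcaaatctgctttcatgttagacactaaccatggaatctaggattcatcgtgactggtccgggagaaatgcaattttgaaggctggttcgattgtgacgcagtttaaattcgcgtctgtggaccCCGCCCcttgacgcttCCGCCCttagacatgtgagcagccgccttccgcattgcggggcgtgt
Mrpl34: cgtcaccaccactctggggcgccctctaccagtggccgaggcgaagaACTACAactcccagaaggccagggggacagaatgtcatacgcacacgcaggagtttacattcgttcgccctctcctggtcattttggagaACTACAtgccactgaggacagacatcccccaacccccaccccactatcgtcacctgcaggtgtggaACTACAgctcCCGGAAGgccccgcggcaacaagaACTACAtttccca
Mrpl55: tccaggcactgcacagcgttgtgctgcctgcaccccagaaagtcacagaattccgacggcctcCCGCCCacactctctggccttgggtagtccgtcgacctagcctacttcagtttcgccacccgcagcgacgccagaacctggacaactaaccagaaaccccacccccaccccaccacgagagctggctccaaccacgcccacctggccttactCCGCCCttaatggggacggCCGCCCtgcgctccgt
Mrps14: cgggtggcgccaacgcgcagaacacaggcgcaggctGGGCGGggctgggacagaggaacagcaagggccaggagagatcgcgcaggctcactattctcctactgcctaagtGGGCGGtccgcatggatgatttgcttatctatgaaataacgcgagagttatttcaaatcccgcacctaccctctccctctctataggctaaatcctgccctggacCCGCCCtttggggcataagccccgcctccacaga
Mrpl37: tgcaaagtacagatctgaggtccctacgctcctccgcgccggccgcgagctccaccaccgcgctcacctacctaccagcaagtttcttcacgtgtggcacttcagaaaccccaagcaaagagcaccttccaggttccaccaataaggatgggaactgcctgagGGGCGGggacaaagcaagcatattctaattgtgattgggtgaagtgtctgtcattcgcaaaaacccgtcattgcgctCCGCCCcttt

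The Mrpl41 bases (chr2:24975099-24975348, minus strand) held none of the 5 motifs, and the 300-base promoter they belong to was 68.0% G or C. The untreated summit lay 108 bp before the start and the R848 summit 50 bp before it, both within the bases shown. The Mrps18b bases (chr17:35916441-35916690, minus strand) held an NRF1 motif from base −223 and GC boxes from −63 and −47, negative numbers being bases before the start. Both Mrps18b summits lay further upstream, at 430 and 337 bp. The Mrpl34 bases (chr8:71464676-71464925, plus strand) held ACTACA at 4 places, from −203, −113, −47 and −13, and an ETS site from −37, and the summits lay at 180 and 117 bp upstream. The bases of Mrpl55 (chr11:59202236-59202485, plus strand) and Mrps14 (chr1:160194965-160195214, plus strand) each held 3 GC boxes, and those of Mrpl37 (chr4:107066867-107067116, minus strand) held 2. These matches describe the letters only and are not evidence that a factor binds.

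RefSeq's promoter table, with 250 bases before and 50 after each start, matched 69 of the 78 members with 75 promoters. The ETS motif was in 26 of the 75 (34.7%), against 11.6% of all 21262 promoters of protein-coding genes in the table. YY1 was in 8 (10.7%, against 1.83%) and NRF1 in 8 (10.7%, against 3.51%). The GC box was in 39 (52.0%, against 46.2%), ACTACA in 9 (12%, against 10.3%), the E-box CACGTG in 7 (9.33%, against 7.84%), the CCAAT box in 30 (40.0%, against 38.2%) and TATAAA in 5 (6.67%, against 12.6%). None of these motifs contains another, and both strands were searched. The family's promoters thus held ETS, NRF1 and YY1 letters at a higher share than promoters at large. Within the family, GC boxes were in 26 of 37 promoters (70.3%) of members with a peak in either list and in 13 of 38 (34.2%) of members without one. YY1 went the other way, with 1 of 37 and 7 of 38, and ETS had 13 of 37 and 13 of 38. These are counts of promoters and not of genes. The members with several annotated starts (Mrpl48 with 4, Mrpl2 with 3, Mrps16 with 2) all had a peak, so each entered that side more than once. Mrpl2 counted as having a peak though its summit lay 4441 bp from its start. Mrpl18, with a peak within 1000 bp of its annotated start, counted as having none. The differences were not tested. Median G and C content was 58.7% over the members' promoters and 56.3% over all. The median ratio of observed to expected CpG differed more, at 0.82 and 0.567. The ETS, NRF1, YY1, GC box and E-box letters each contain a CpG. The part of CpG content in their shares, and in the split by peak, was not tested. That split was not made over all promoters. Over all genes, 45.2% of those with a CpG-rich promoter (defined below) and 14.9% of the others had an untreated peak. For R848 these shares were 38.6% and 12.2%.

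In the untreated macrophages 31 of the 78 members (39.7%) had a gene-end peak, against 28.8% of all protein-coding genes. After R848, 22 members (28.2%) had one, against 24.4%. The untreated share is above that of genes at large and the R848 share is close to it. Both lists had a peak at 17 members (21.8%, against 17.3%), the untreated list alone at 14 (17.9%, against 11.5%) and the R848 list alone at 5 (6.41%, against 7.12%). The remaining 42 members had none. With peaks of q up to 0.05 only, the counts were 16 (20.5%, against 16.7%) and 13 (16.7%, against 15.1%). At a −log10 q of at least 5 they were 6 (7.69%, against 5.97%) and 1 (1.28%, against 4.39%).

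**Figure D1:**
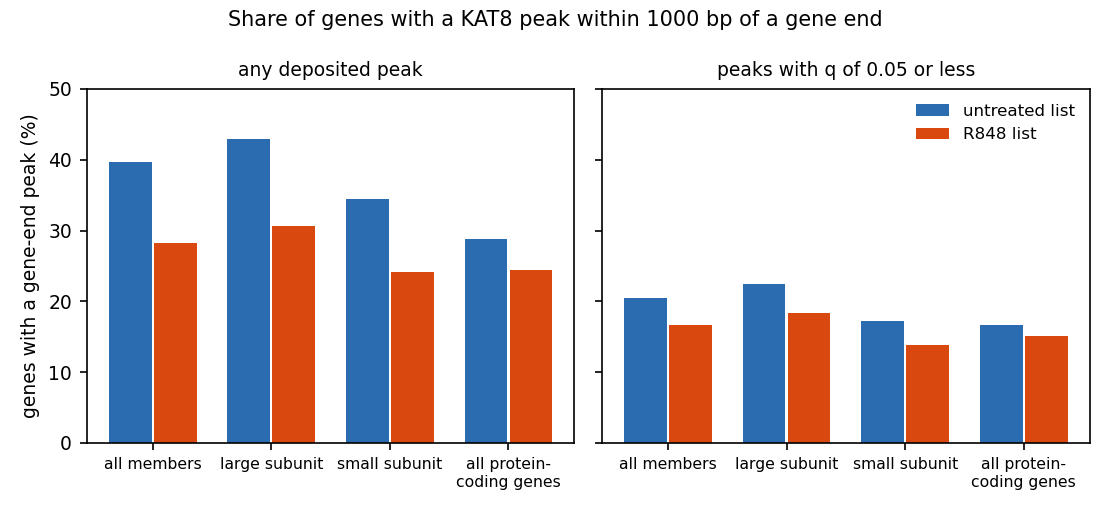
Percent of genes with a KAT8 peak within 1000 bp of a gene end, for all 78 members, the 49 large and 29 small subunit genes and all 21883 protein-coding genes, with every deposited peak (left) and with q of 0.05 or less (right); blue bars are the untreated library and orange bars the R848 library, 1 library each. For any peak, the members' bars reach 39.7% and 28.2% and those of all genes 28.8% and 24.4%.

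Large subunit genes had a peak somewhat more often than small subunit genes in both libraries. In the untreated list 21 of 49 large subunit genes (42.9%) and 10 of 29 small subunit genes (34.5%) had one. For R848 these counts were 15 (30.6%) and 7 (24.1%). Over all protein-coding genes the shares were 28.8% (untreated) and 24.4% (R848). The difference between the subunits rests on small counts and was not tested. With q up to 0.05 the shares of large and small subunit genes were 22.4% and 17.2% without R848, against 16.7% of all genes. With R848 they were 18.4% and 13.8%, against 15.1%. The small subunit shares at this threshold were thus close to those of genes at large. Another gene's end lay within 1000 bp of 61.2% of large and 48.3% of small subunit genes, and its part in the difference was not tested. Mrps30 and Mrps18a had no gene-end peak, and Mrps36 had a weak one in the untreated list (fold 2.75), so assigning these genes by structure gave 21 large and 9 small subunit genes in the untreated list.

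Where members had peaks, the peaks had about the same fold as those of other genes. The median fold was 3.20 over the 31 members with an untreated peak and 3.20 over all 6299 genes with one. For R848 it was 3.53 over 22 members and 3.32 over 5349 genes. By rank of fold within the list, 10 of the 31 members (32.3%) lay in the highest 10% of all untreated peaks, as did 31.7% of genes with a peak. Of the R848 peaks, 6 of the 22 (27.3%) did, against 28.9%. The median member peak lay at the highest 22.7% of the untreated list, the same as over all genes with a peak, and at the highest 20.3% of the R848 list, against 25.5%. A −log10 q of at least 5 was reached at 6 of the 31 members and 1306 of the 6299 genes (untreated). In the R848 list it was reached at 1 of the 22 members, a lower share than the 960 of 5349 genes.

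Among large subunit genes with a peak in both lists, Mrpl41, which encodes a protein with no bacterial counterpart, had the highest fold. Its untreated peak (chromosome 2, 24974912 to 24976183, mm10) had 27 fragments at the summit, a fold of 6.41 with a −log10 q of 12.1, and rank 797 of the list. Its R848 peak, inside those bounds, had 18 fragments, a fold of 5.25 with a −log10 q of 6.35, and rank 1481. It was the only member with a −log10 q of at least 5 in both lists. Mrpl15, a core protein conserved from bacteria, had an untreated peak of fold 5.26 (chromosome 1, 4785439 to 4785781, 22 fragments, −log10 q 7.80) and an R848 peak of fold 3.59 (12 fragments, −log10 q 2.07). Mrpl34, also conserved from bacteria, had folds of 4.69 and 3.46, with 23 and 15 fragments and −log10 q of 6.94 and 2.48. At Mrpl55 the folds were 4.58 and 4.14, with 19 and 14 fragments and −log10 q of 5.51 and 3.34. Folds of the 2 lists are set side by side here without being a measure of response to R848, because the libraries had unequal depth.

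The other large subunit genes with peaks in both lists had lower folds in the untreated list, but not all of them in the R848 list, where Mrpl48 equalled Mrpl55. Mrpl48 had folds of 3.66 and 4.14 (15 and 14 fragments), Mrpl51 of 2.98 and 3.87 (12 and 13) and Mrpl49 of 3.20 and 3.59 (13 and 12). Mrpl40 had 3.20 and 2.76 (13 and 9 fragments), Mrpl47 had 2.98 and 3.04 (12 and 10) and Mrpl38 had 2.75 and 3.04 (11 and 10). Mrpl12, which encodes the protein of the flexible stalk where translation factors dock, differed from the rest in position. Its untreated peak (fold 2.36, chromosome 11, 120489253 to 120489526) lay beyond the far end of the gene, 4754 bp from the start, and its R848 peak (fold 3.04, 120484353 to 120484552) lay 241 bp before the start.

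Among small subunit genes with peaks in both lists, Mrps18b had the highest untreated fold, while in the R848 list it and Mrps14 were level. This gene is 1 of a set of paralogs with Mrps18a and Mrps18c. Its untreated peak (chromosome 17, 35916241 to 35917068) had 27 fragments and a fold of 6.28 (−log10 q 11.8), and its R848 peak had 15 fragments and a fold of 4.42 (−log10 q 4.04). Mrps18a and Mrps18c had no gene-end peak. Mrps14, conserved from bacteria, had folds of 4.35 and 4.42 (18 and 15 fragments, −log10 q 4.80 and 4.04). Mrps28 had 4.12 and 3.59 (17 and 12 fragments) and Mrps33 had 3.89 and 3.32 (16 and 11). Mrps6 had 2.52 and 2.76 (10 and 9 fragments) and Mrps16 had 2.75 and 2.49 (11 and 8), all with a −log10 q under 1.

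**Figure D2:**
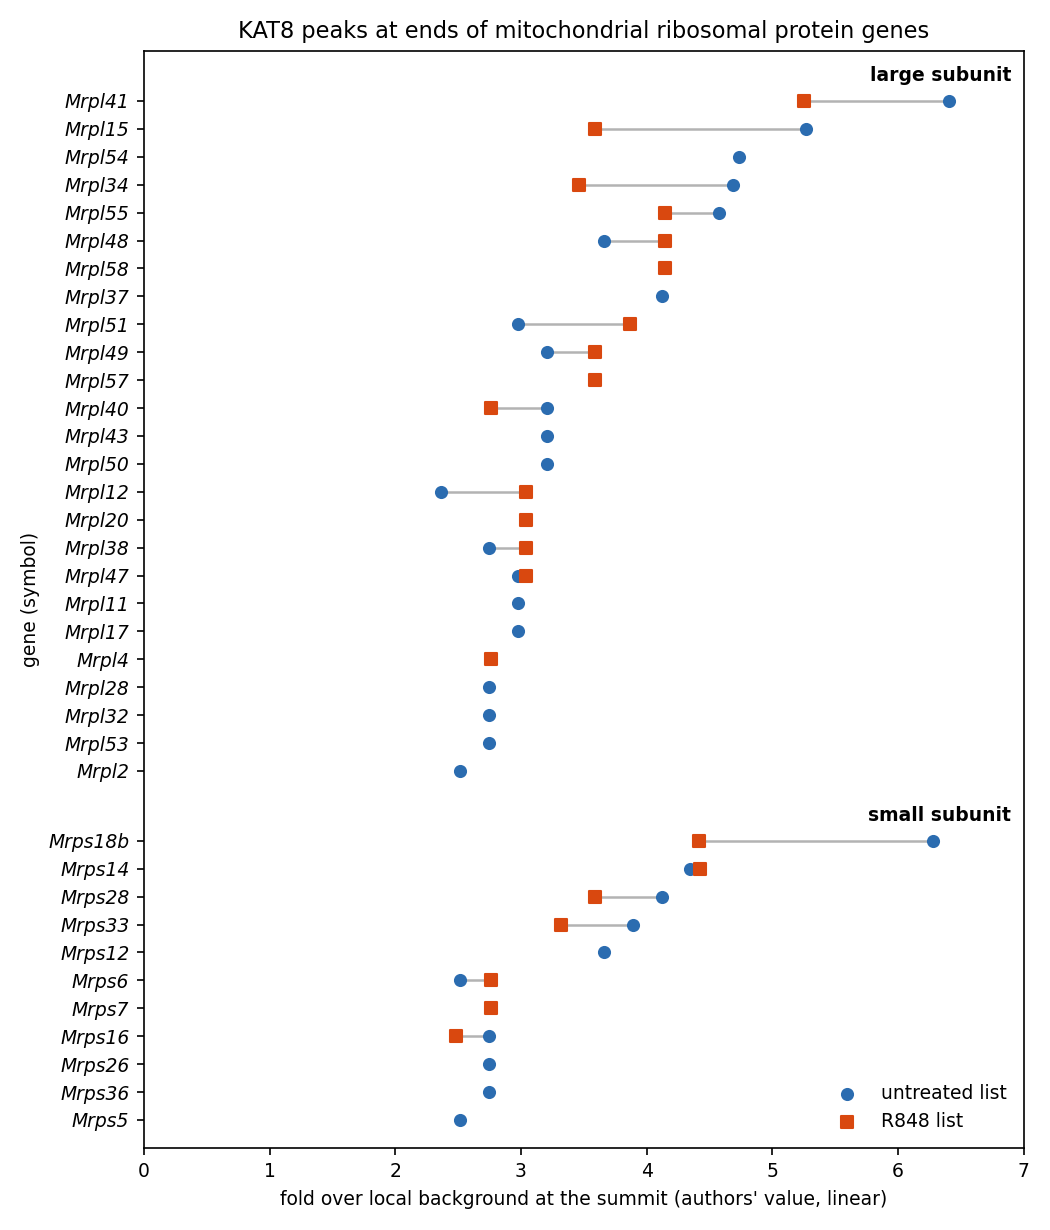
Fold over local background, as deposited by the authors, of the strongest gene-end peak of each of the 36 members with a peak in either list (linear axis); circles are the untreated library, squares the R848 library, and a grey line joins the values of a member with both. Mrpl41 and Mrps18b stand highest in the untreated list, at 6.41 and 6.28, and members with a single marker have a peak in 1 list only.

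Where a member had a peak in both lists, the peaks mostly overlapped by at least 1 bp, about as often as over all genes. Of the 17 members with a peak in both, 16 (94.1%) had overlapping peaks, all but Mrpl12, against 93.3% of the 3792 protein-coding genes that both lists cover. With an overlap of 50% of each peak, 12 members and 2631 of all genes remained. To set the libraries at 1 depth, untreated pileups were multiplied by 0.777, the ratio of the backgrounds. The R848 pileup was then above the scaled untreated value at 8 members and below it at 9. The scaled comparison was not made over all genes. By fold, without scaling, the R848 value was the higher at 47.1% of the 17 members, against 51.1% of the 3792 genes. The largest difference in fragments was at Mrps18b, where the scaled untreated pileup was 21.0 (95% exact Poisson interval 13.8 to 30.5) and the R848 pileup 15 (8.40 to 24.7). The intervals, which cover counting error only, overlapped at all 17 members, Mrpl12 with its separate peaks included. Overlap of intervals is not a test of difference, and each of the 17 had been chosen for a listed peak in both lists. With so few fragments the intervals are wide, and members with a peak in 1 list only were left out. The overlap therefore does not show that the libraries were alike.

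Untreated-only peaks included 1 of the family's stronger ones. At Mrpl54 the peak (chromosome 10, 81266530 to 81266873) had 22 fragments (95% exact Poisson interval 13.8 to 33.3) over a local background of 3.86 and a fold of 4.73 (−log10 q 6.73). Scaled to the R848 background this is 17.1 fragments, and no overlapping R848 peak was listed. Mrpl37 followed, with 17 fragments and a fold of 4.12 (−log10 q 4.11). Mrps12, whose protein sits at the decoding centre of the small subunit, had 15 fragments and a fold of 3.66. Mrpl50 and Mrpl43 had 13 fragments and a fold of 3.20 each, and Mrpl11 and Mrpl17 had 12 and a fold of 2.98 each. Mrpl28, Mrpl32, whose protein must be cut by a mitochondrial protease before it joins the ribosome, Mrpl53, Mrps26 and Mrps36 were tied at 11 fragments and a fold of 2.75. Mrpl2 and Mrps5 had 10 fragments and a fold of 2.52. Only the first 5 of these 14 members had a q up to 0.05. The scaled pileups ran from 7.77 to 17.1, and the lowest R848 summit listed had 7, and 9 of the 14 had 12 fragments or fewer, at most 9.33 after scaling.

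R848-only peaks were found at 5 members and were weak to moderate. Mrpl58 encodes a peptidyl-tRNA hydrolase that frees stalled ribosomes and is itself part of the large subunit. It had 14 fragments (95% exact Poisson interval 7.65 to 23.5), a fold of 4.14 (−log10 q 3.34), but the peak (chromosome 11, 115413013 to 115413701) lay at the far end of the gene, 9518 bp from the annotated start. Mrpl57 had 12 fragments and a fold of 3.59, with the summit 105 bp inside the gene. Mrpl20 (10 fragments, fold 3.04), Mrpl4 and Mrps7 (9 fragments and fold 2.76 each) had a −log10 q of 1.01 or less. The Mrpl4 summit lay 1106 bp from the nearest gene end, so only the edge of its peak reached the window. An untreated peak (fold 2.29) also lay inside Mrpl4, with its summit 1491 bp from the nearest end. Looking beyond the window, none of the 14 untreated-only or 5 R848-only peaks touched a peak in the opposite library.

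No gene-end peak was listed at 24 large subunit genes: Mrpl1, Mrpl3, Mrpl9, Mrpl10, Mrpl13, Mrpl14, Mrpl16, Mrpl18, Mrpl19, Mrpl21, Mrpl22, Mrpl23, Mrpl24, Mrpl27, Mrpl30, Mrpl33, Mrpl35, Mrpl36, Mrpl39, Mrpl42, Mrpl44, Mrpl45, Mrpl46 and Mrpl52. The same was true of 18 small subunit genes: Mrps2, Mrps9, Mrps10, Mrps11, Mrps15, Mrps17, Mrps18a, Mrps18c, Mrps21, Mrps22, Mrps23, Mrps24, Mrps25, Mrps27, Mrps30, Mrps31, Mrps34 and Mrps35. Mrpl18 belongs here only by its outermost annotated end. A peak in both lists lay within 1000 bp of its annotated start, which is inside the gene's full span. Its untreated fold was 4.35 with 18 fragments (chromosome 17, 12916102 to 12916519) and its R848 fold 2.49 with 8 fragments. Tcp1, which encodes a subunit of the TRiC chaperonin, starts 238 bp from that start on the opposite strand, and the peak lay at Tcp1 too. Where annotated starts alone were used, 27 of 69 members had an untreated peak and 18 an R848 peak. Mrpl18 entered in both lists and Mrpl23 in the untreated list, and Mrpl2, Mrpl12 (both untreated) and Mrpl58 (R848) left, since their peaks were at the other end.

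Members often lay close to other genes. Of the 31 members with an untreated peak, 20 (64.5%) shared that peak with another protein-coding gene whose end was also within 1000 bp, against 29.5% of all genes with a peak. Of those with an R848 peak, 13 of 22 (59.1%) did, against 29.5%. The gene positions themselves differ in the same way, with no use of peaks: another gene's end lay within 1000 bp of 44 of the 78 members (56.4%) and of 24.8% of all genes. Another start on the opposite strand lay within 1000 bp of the start of 25 of 69 members (36.2%), against 9.61% of 17491 genes with an annotated start.

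Read against genes with the same kind of neighbourhood, the members' shares lay nearer to the background in the untreated list. Of the 44 members with another gene end within 1000 bp, 22 (50%) had an untreated peak, against 45.5% of such genes, and 14 (31.8%) had an R848 peak, against 38.2%. Of the 34 members with none, 9 (26.5%) had an untreated peak, against 23.3%, and 8 (23.5%) had an R848 peak, against 19.9%. The R848 share of members with a close neighbour is thus below that of comparable genes, and the other 3 shares are slightly above. Members also had CpG-rich promoters more often (55 of 69, or 79.7%, against 48.3%; at least 50% G and C and an observed over expected CpG ratio of at least 0.6). Among CpG-rich genes 43.6% of members and 45.2% of all genes had an untreated peak, and 29.1% and 38.6% an R848 peak. Among the others, 3 of 14 members (21.4%) had an untreated peak, against 14.9% of such genes. For R848 it was 2 of 14 (14.3%), against 12.2%. The part of CpG content in the members' shares was not tested. Neither a control nor an accessibility measurement was used here, so KAT8 binding and cutting of open chromatin cannot be told apart.

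**Figure D3:**
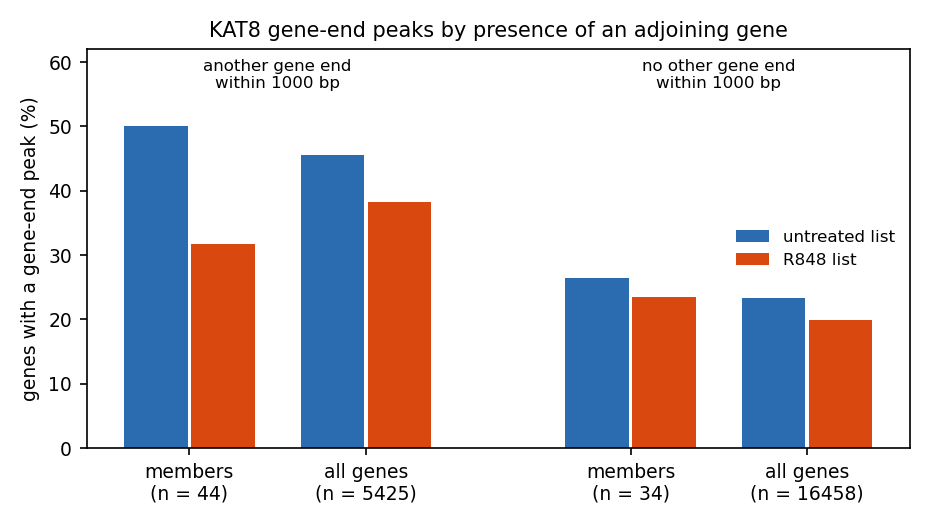
Percent of genes with a KAT8 gene-end peak, split by whether the end of another protein-coding gene lies within 1000 bp, for members and for all protein-coding genes (n under each pair of bars); blue is the untreated library and orange the R848 library. Both sets of genes have higher bars with a close neighbour, 50% and 45.5% in the untreated library.

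Several of the shared promoters join the family to other genes of mitochondria or protein synthesis. The untreated peak at Mrps12 also lay at the start of Sars2, the mitochondrial seryl-tRNA synthetase, and that at Mrpl43 at the start of Twnk, the helicase that unwinds mitochondrial DNA. Mrpl47 shared its peak in both lists with Ndufb5, a subunit of respiratory complex I, and Mrpl49 with Fau, which encodes a cytosolic ribosomal protein fused to a ubiquitin-like domain. These pairs were picked out after their values were seen.

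Other members adjoined genes of unrelated roles. In both lists the peaks of Mrpl41 lay within 1000 bp of the start of Pnpla7, a lysophospholipase, those of Mrps18b that of Ppp1r10, a nuclear regulator of protein phosphatase PP1, and those of Mrpl48 that of Rab6a, a GTPase of Golgi transport. Mrpl40 shared its peaks with Hira, a chaperone of histone H3.3, Mrpl51 with Ncapd2, a condensin subunit, and Mrps6 with Slc5a3, a myo-inositol transporter. Mrpl34 shared its peaks with the upstream end of the span of Abhd8, on the opposite strand, and Mrps16 with the far end of Cfap70. In the untreated list alone, Mrpl32 adjoined Psma2, a proteasome subunit, Mrpl37 adjoined Cyb5rl, Mrpl50 adjoined Zfp189 and Mrps5 adjoined Zfp661. Also in that list alone, Mrpl2 adjoined Cul7, a cullin of ubiquitin ligases, Mrpl54 adjoined Apba3, Mrpl28 adjoined Pgap6 and Mrpl53 adjoined Ccdc142. In the R848 list, Mrpl57 adjoined Ska3, a kinetochore protein, Mrps7 adjoined Gga3, an adaptor of vesicle transport, and Mrpl12 adjoined Hgs, an endosomal sorting protein. No peak lay at 2 members at once. The 1 pair of members that start back to back, Mrpl46 and Mrps11, 42 bp apart, lacked a gene-end peak with and without R848.

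For a peak between a pair of starts the summit does not say which gene it belongs to. Of the 20 shared untreated peaks, 14 had the summit within 1000 bp of both annotated starts, nearer to the adjoining gene's at 9 and to the member's at 5. Of the 13 shared R848 peaks, 10 did, nearer to the adjoining start at 3 and to the member's at 7. At Mrpl40 the summits were 12 and 11 bp from the start of Hira and 125 and 124 bp from its own. At Mrpl49 they were 37 and 48 bp from the start of Fau and 229 and 240 bp from its own. At Mrpl47 the order was the opposite, with 17 and 3 bp to its own start and 325 and 305 bp to that of Ndufb5. Mrps18b had a summit nearer to Ppp1r10 in the untreated list (326 against 430 bp) and nearer to its own start in the R848 list (337 against 419 bp).

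Summits lay upstream of the members' starts more often than for genes at large. Within 1000 bp of an annotated start, 20 of 25 untreated summits (80.0%) and 14 of 17 R848 summits (82.4%) were upstream, against 55.7% and 57.0% over all genes. The median positions were −186 and −117 bp from the start, against −32.5 and −40.0 bp. Among members with no other start within 1000 bp, 8 of 11 untreated and 5 of 7 R848 summits were upstream, against 52.1% and 54.4% of such genes. With another start within that distance, 12 of 14 and 9 of 10 were, against 68.4% and 66.5%. The counts are small and the difference was not tested.

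**Figure D4:**
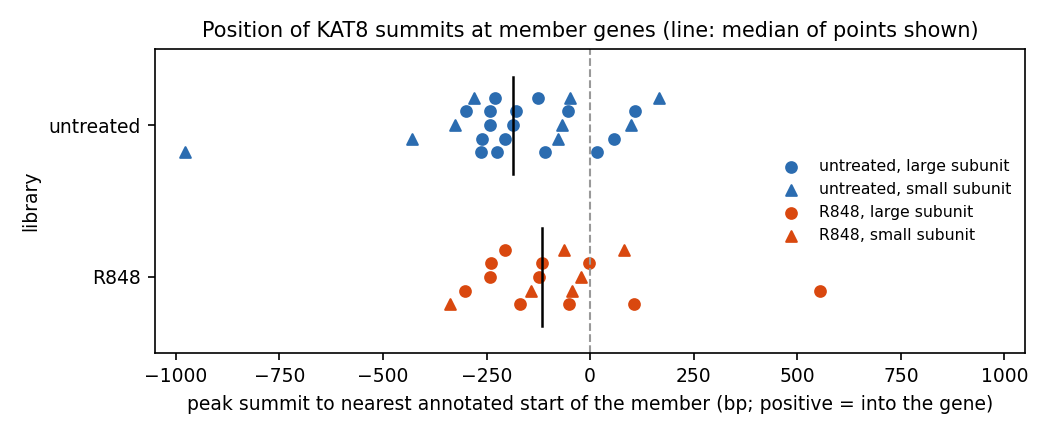
Distance in bp from each member's nearest annotated start to the summit of its strongest gene-end peak, positive into the gene, for the 25 untreated and 17 R848 summits within 1000 bp; circles are large and triangles small subunit genes, and black lines are the medians, at −186 and −117 bp. Most points lie left of the start, and 2 untreated and 1 R848 summits beyond 1000 bp are not shown.

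Genes that work with the mitochondrial ribosome were listed for comparison; over all protein-coding genes, 28.8% had an untreated peak, 24.4% an R848 peak and 17.3% one in each. Of 5 mitoribosomal proteins with other symbols, 2 had an untreated peak and 3 an R848 peak. Dap3, a GTP-binding protein of the small subunit (3.66 and 4.42), and Gadd45gip1, of the large subunit (3.20 and 3.04), had peaks in both lists, and Aurkaip1 in the R848 list only (2.49). Ptcd3 and Chchd1 had none. Of 19 mitochondrial translation factors 3 had a peak in each list. Mtrf1l, a release factor, had folds of 7.32 and 6.91, both above the highest of any member in the same list. Lrpprc, an RNA-binding protein, had 3.43 and 3.75. Tufm, the elongation factor, had an R848 peak only (3.32) and Pdf, a deformylase, in the untreated list only (3.20).

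Of 26 assembly and ribosomal RNA modification factors 11 had an untreated peak and 6 an R848 peak, 5 of them in both lists. Malsu1, an assembly factor of the large subunit, had the highest fold, in the untreated list only (4.81, −log10 q 6.25). Mterf3 (4.35 and 4.14) and Noa1 (4.12 and 2.76) had peaks in both. Mrm1, a methyltransferase (3.89 and 3.04), had them too, and Mtg1, a GTPase, had the same untreated fold (3.89) with no R848 peak. Of 6 mitochondrial transcription factors 2 had a peak in each list: Tfb2m in both (3.20 and 2.49), Tfam in the untreated list only (2.29) and Polrmt, the mitochondrial RNA polymerase, in the R848 list only (3.31). As in the ribosomal protein family, the assembly list had more untreated-only members (6) than R848-only members (1), as all genes did (11.5% and 7.12%).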

How the data were processed

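KAT8 CUT&Tag peak lists of 1 untreated and 1 R848-treated macrophage library were used, grouped by the treatment label. Per the submitters' processing notes the tools were Bowtie 0.12.8, MACS2 2.2.7.1 and DiffBind, with build mm10; tool settings and any control library were not given in the sources used here. The authors deposited 5 values per peak: a whole-number score of about 10 times −log10 p, the fold (a ratio of summit to background), the p-value and the q-value as −log10, and the summit position. Each library has its own peak list, numbered separately per the peak names in the files.

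Summit pileups and backgrounds were solved from the deposited fold, (pileup + 1) / (background + 1), and its Poisson tail. Shared peaks overlap by at least 1 bp. Starts and strands came from RefSeq's promoter table, which covers 17491 of the genes. The code (Python 3.11.15, scipy 1.17.1) was tested on simulated data and against bedtools 2.31.1. Alternatives changed the threshold, list length, window, peak placement, overlap and subunit assignment. Every member was classed; full values are given for the 12 highest folds among members with a peak in both lists, up to 8 per direction in 1 list (with ties), −log10 q of at least 5 and up to 4 per pathway list. Members and lists were chosen with earlier results of these data known. 1 gene of the marker lists is not reported here.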

Additional observations from a re-analysis of the deposited data

How the results depend on the processing

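Members with a gene-end peak kept their counts within 1.5 times (31 untreated, 22 R848, 17 both) with windows of 500 or 3000 bp, lists of equal length, summits in the window or annotated starts alone, as did the counts of peaks in 1 list only (14 and 5), of overlapping peaks (16) and of peaks shared with another gene (20 and 13). The shares over all genes moved too. With a window of 3000 bp, 44.9% of members and 38% of all genes had an untreated peak, and 32.1% and 32.9% an R848 peak. With 500 bp they were 38.5% and 25.3%, and 26.9% and 21.2%. The R848 share of members was thus slightly below that of all genes at 3000 bp and above it at 500 bp. Counting peaks that overlap outside the window changed none of the 1-list counts, and requiring 50% overlap of each peak or summits within 250 bp kept the overlapping count within 1.5 times. The threshold moved every count, since fewer peaks remain. With q up to 0.05, members with a peak came to 16 (untreated), 13 (R848) and 10 (both lists, all 10 overlapping), those in 1 list only to 6 (untreated; 7.69%, against 6.14% of all genes) and 3 (R848; 3.85%, against 4.6%), shared with another gene to 11 and 7 (14.1% and 8.97%, against 5.59% and 4.94%), large subunit genes to 11 and 9 and small subunit genes to 5 and 4. At a −log10 q of at least 5 the same counts were 6, 1 and 1 (overlapping 1), 5 and 0, 4 and 1, 5 and 1, and 1 and 0. Of all genes, 2.6% and 1.01% were then in 1 list only and 2.15% and 1.59% shared with another gene. Both lists had a peak at 12.8% of members, against 10.5% of all genes, with q up to 0.05. At a −log10 q of at least 5 this was 1.28%, against 3.37%, the reverse of the main setting (21.8%, against 17.3%). For overlapping peaks the shares were 12.8%, against 10.2%, and 1.28%, against 3.37%. Where a q up to 0.05 was set against any peak of the other list, an alternative chosen after seeing the data, 5 members had an untreated peak only and 2 an R848 peak only, beside 800 and 539 of all 21883 genes. Depth limits these counts, as do single libraries: the lowest listed summits had 8 and 7 fragments and the members' own 27 at most. No paired analysis was possible because each group had 1 library.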

Other observations

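Away from their outermost ends, 13 members held 17 untreated peaks and 6 members held 7 R848 peaks inside the gene. These are 16.7% and 7.69% of the family, against 28.8% and 26.4% of all protein-coding genes, and members were shorter, with a median span of 7691 bp against 17170 bp. Counted among the peaks were those of Mrpl18 in both lists and of Mrpl23 in the untreated list, which lay within 1000 bp of an annotated start. Of the 17 and 7 peaks, 5 and 3 had a q up to 0.05, and 3 in each list overlapped a peak of the other. The strongest lay in Mrps28, whose annotated span is long, on chromosome 3 from 8831842 to 8832817. It had a fold of 4.37 with 21 fragments in the untreated list and of 5.83 with 23 fragments in the R848 list, higher in both than the peak at the end of the same gene (4.12 and 3.59). The untreated summit lay 30092 bp from the nearest end of Mrps28 and the peak was at the end of no other protein-coding gene. A peak inside Mrps18a in both lists (fold 2.75 and 3.59) lay at the end of Rsph9, a gene of motile cilia. Mrps27 held 4 untreated peaks and no R848 peak, with folds from 2.06 to 2.98 and none with a q up to 0.05.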
